A study of Mus musculus with 57 samples.

Results

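Described here are 10 genes that build, cross-link or signal through the extracellular matrix of adipose tissue, namely the lysyl oxidases Lox, Loxl1, Loxl2 and Loxl3 and the matrix proteins Thbs1, Thbs2, Postn, Sparc, Fn1 and Tnc. They were taken by gene symbol, and all 10 were found among the 52853 genes with counts. RNA-seq counts came from male mice homozygous for the Mfn2 R707W knock-in (KI) allele and from wild-type (WT) littermates. Mfn2 encodes mitofusin 2, a GTPase of the outer mitochondrial membrane, and the allele models a human lipodystrophy. The line goes back to a single CRISPR founder on C57BL/6J, and every cell of a KI mouse carries both edited alleles. Inguinal white adipose tissue (ingWAT) was taken from 7 WT and 6 KI mice on chow and from 8 WT and 8 KI mice on a high-fat diet (HFD) with 45% of energy from fat. Brown adipose tissue (BAT) was taken from 6 WT and 6 KI mice on HFD. By the authors' methods, all groups began their diet at 5 weeks of age, and they stayed on it for 6 months. Legends of the same study give the starting age as 7 weeks. Whether the BAT and ingWAT libraries came from the same animals is not given in the sources used here.

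Lysyl oxidases are secreted copper enzymes that oxidise lysines of collagen and elastin, which then form the covalent cross-links that stiffen a fibre. Fibronectin, periostin, thrombospondins, SPARC and tenascin C sit among these fibres, where they bind cells, collagen, growth factors or proteases, and many are produced at high level during tissue remodelling. In adipose tissue, stromal cells are a main source of these proteins, adipocytes make several of them, and the matrix is rebuilt as the depot expands on a rich diet.

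Each mouse contributed between 8042591 and 11720458 counts in BAT and in ingWAT on chow, and between 17572752 and 25680411 in ingWAT on HFD. Labels and markers agreed for tissue: Ucp1, the uncoupling protein of brown adipocytes, reached 6164 ± 1209 CPM (counts scaled to library size; SD, n = 6) in BAT of WT mice and at most 1.77 CPM in any ingWAT library of either diet. Mfn2 mRNA carries a recoded codon and is not removed by the edit, so its level does not check the genotype. It was not called in any of the 3 comparisons of KI with WT (log2 fold changes 0.29 to 0.36). Its mean was higher in KI in each, with edgeR adjusted p = 0.0114 in ingWAT on HFD, 0.084 on chow and 0.113 in BAT. In these, 5 of 8, 5 of 6 and 5 of 6 KI mice exceeded every WT mouse. Some libraries stood apart by markers of other tissue. Skeletal muscle genes summed to 56906 CPM in chow KI mouse 4, against a median of 126 in its group. Macrophage, epithelial and mesothelial genes were all highest in chow WT mouse 4 (2254, 127 and 75.9 CPM). Lymphocyte genes reached 835 and 596 CPM in HFD KI mouse 2 and HFD WT mouse 2. The 10 genes were also tested without 14 mice, a choice made after these values were seen. In these mice, muscle or lymphocyte genes summed to at least 100 CPM and exceeded 5 times their group median. The rule did not use macrophage, epithelial or mesothelial genes, and chow WT mouse 4 was kept.

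All values below are CPM on a common scale for the 41 libraries, "called" means an adjusted p below 0.01 in edgeR's quasi-likelihood test across all genes, and log2 fold changes are KI over WT unless stated. An exact two-sided permutation p for a single gene is given unadjusted beside it. Across the 3 genotype comparisons, 13 of the 30 permutation tests gave p below 0.05. The share over all genes was not computed for this test. By edgeR, 32.9% of all genes in ingWAT on HFD had an unadjusted p below 0.05. The shares were 24.3% on chow and 24.4% in BAT.

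**Figure D1:**
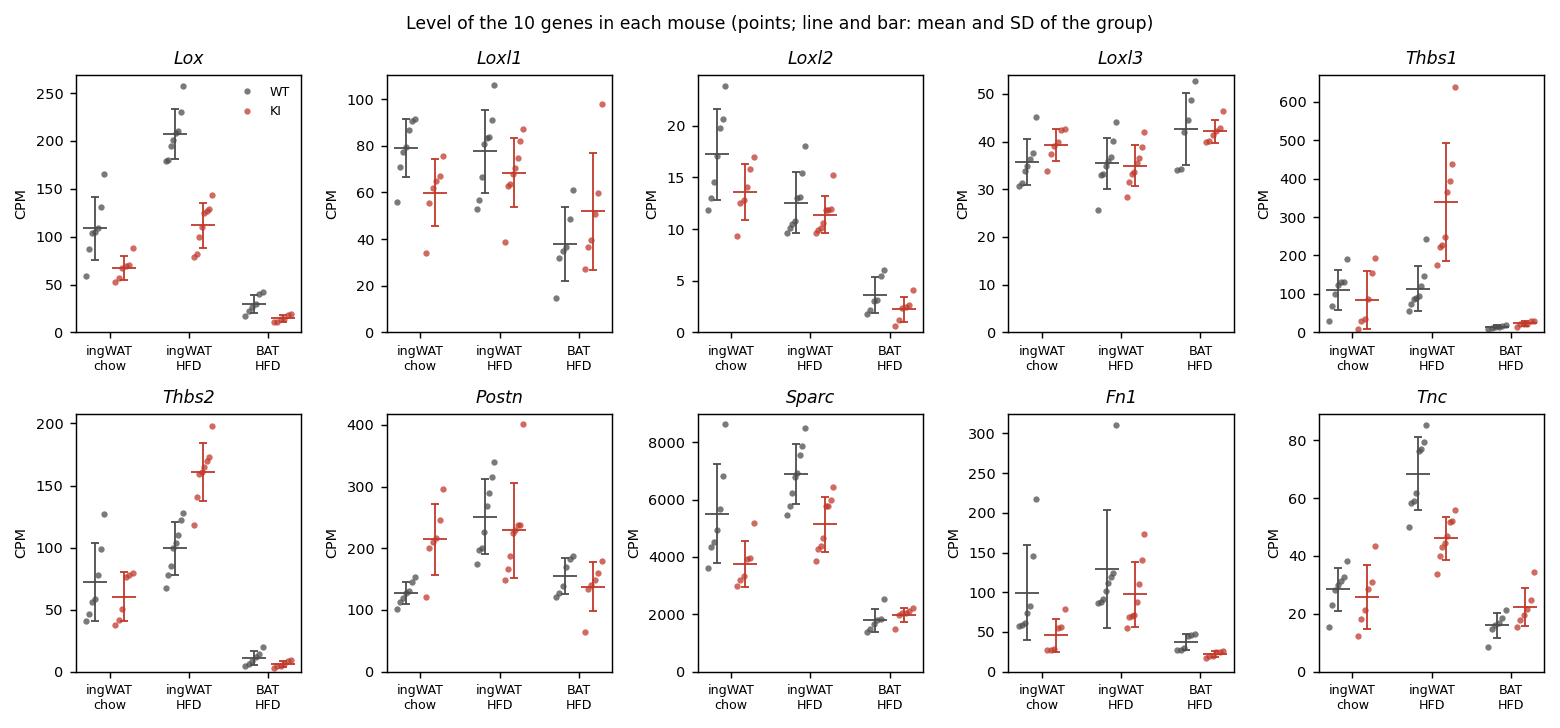
Level of each of the 10 genes in every mouse, in CPM on linear axes from 0, for ingWAT on chow, ingWAT on HFD and BAT on HFD; grey points are WT, red points KI, and the line and bar are the mean and SD of a group. On HFD all 8 KI ingWAT libraries lie below the 8 WT libraries for Lox, while Thbs1 and Thbs2 are shifted upwards and the BAT libraries lie low for most of the genes.

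In ingWAT on HFD, 4 of the 10 genes were called, which compares with 11.5% of the 16471 genes tested. Lox and Tnc were lower in KI mice (5.24% of all genes were called lower), and Thbs1 and Thbs2 were higher (6.21% were called higher). On the log2 scale the 10 had a median change of -0.16, against 0.01 for every gene tested. On chow, none of the 10 was called by edgeR where 3.23% of 14629 genes were (1.96% higher and 1.27% lower), although 5 had an unadjusted p under 0.05, as had 24.3% of all genes. DESeq2 called 2 of them on chow, Lox and Postn. In BAT, 1 of the 10, Lox, was called where 1.83% of 13267 genes were (0.475% called lower and 1.36% higher).

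**Figure D2:**
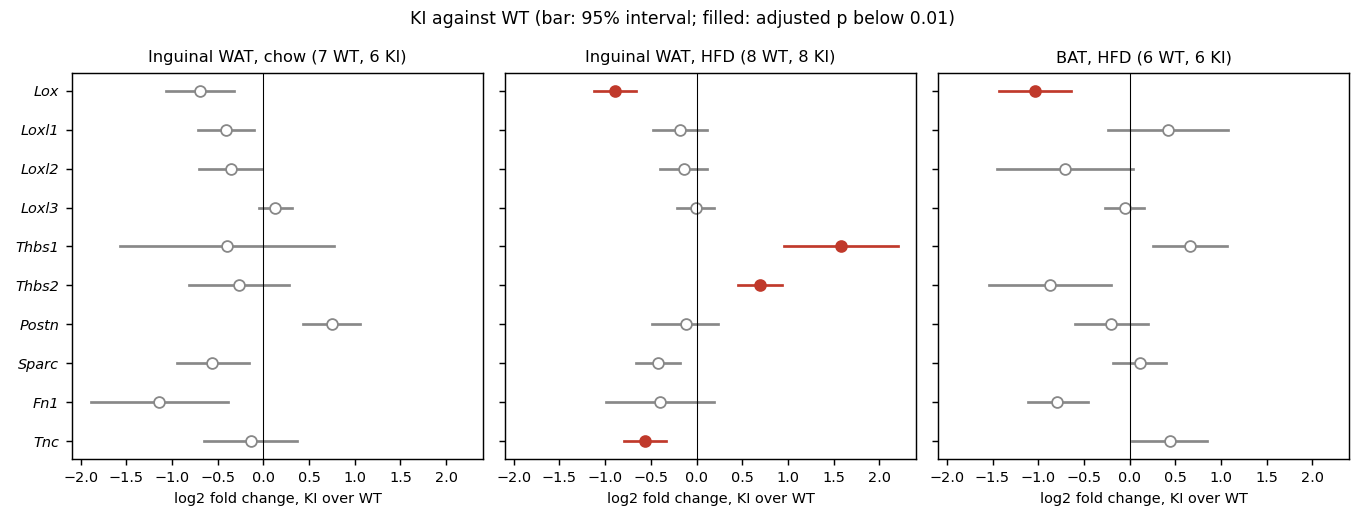
Log2 fold change of KI over WT for each gene in ingWAT on chow, ingWAT on HFD and BAT on HFD, with its 95% interval; filled red points were called. Lox lies below 0 in all 3 panels, from -0.69 to -1.04, and Thbs1 spans from -0.40 on chow to 1.58 on HFD.

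Lox, on chromosome 18, encodes the founding enzyme of the family. In ingWAT on HFD its level had a minimum of 179, a median of 204 and a maximum of 257 CPM in the 8 WT mice, and of 78.9, 117 and 143 CPM in the 8 KI mice. Every KI library lay below every WT library, a separation seen for 4.53% of all genes tested. The difference was -0.89 on the log2 scale (SE 0.116, adjusted p = 2.31e-05), and the permutation p of 1.55e-04 was the smallest that 8 against 8 mice can give. It was called in each of 16 fits that left out a single mouse (log2 fold changes -0.94 to -0.83).

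In BAT, Lox was much lower in both genotypes. It ran from 17.2 through a median of 28.1 to 42.0 CPM in WT and from 11.2 through 14.3 to 19.4 CPM in KI. Of the 6 KI libraries, 4 were below all WT libraries. On the log2 scale KI was at -1.04 relative to WT (SE 0.202, adjusted p = 0.00647, exact permutation p = 0.00649). The direction was the same in all 12 fits that left out a single mouse (-1.14 to -0.91), but the call held in only 3 of them. It was lost without WT mouse 3, 4, 5 or 6 or without KI mouse 1, 2, 3, 4 or 6, with adjusted p from 0.0119 to 0.0202. The BAT libraries held 70 to 300 Lox counts each.

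On chow, Lox ran from 59.0 through 105 to 165 CPM in WT and from 52.4 through 68.4 to 88.3 CPM in KI. The ranges overlapped, with 2 of 6 KI libraries below the WT range, and 4.22% of all genes had ranges that did not overlap. The difference of -0.69 (SE 0.191) missed the threshold in edgeR (adjusted p = 0.0377, exact permutation p = 0.0128). It passed with DESeq2 (adjusted p = 0.00855), in 1 fit of all 6 groups (0.00887) and without chow WT mouse 4 (-0.79, adjusted p = 0.00683). It moved further out without the muscle-rich and lymphocyte-rich mice (-0.52, adjusted p = 0.168). That fit kept 3 KI and 5 WT mice, and its calls over all genes were 134 in place of 472. Without a filter on low counts the adjusted p was 0.0676, and leaving out a single mouse gave up to 0.0927.

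Neither the difference between the Lox effects on HFD and chow (log2 -0.18, 95% interval -0.63 to 0.27, adjusted p = 0.753) nor that between BAT and ingWAT (-0.12, -0.58 to 0.34, adjusted p = 0.829) passed the test.

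Markers of adipose fibroblasts and their progenitors were summed beside Lox. The 11 genes, among them Pdgfra and Pi16, summed to a median of 1396 CPM (1154 to 1712) in HFD KI ingWAT and 1960 (1453 to 2263) in WT. On chow the sums were 1382 (1124 to 1636) and 2409 (1352 to 2859), and in BAT 569 (510 to 617) and 663 (507 to 823), with overlapping ranges in each case. Single markers had log2 fold changes of either sign, from -1.05 to 0.56 on HFD, -1.29 to 0.09 on chow and -1.62 to 0.54 in BAT. None of the 11 was at 0 in any group. Of them, 3 were called lower on HFD (Cd55, Dpt and Fap), 1 on chow (Dpt) and 2 in BAT (Pi16 and Dpt), where 5.24%, 1.27% and 0.475% of all genes were. By edgeR and by DESeq2, 0 were called higher in any of the 3 comparisons, and 6, 6 and 5 had an unadjusted p under 0.05 in either direction, as had 32.9%, 24.3% and 24.4% of all genes. Pdgfra itself had a mean of 31.4 ± 4.04 in KI and 35.4 ± 7.88 CPM in WT on HFD.

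Taken relative to that sum, with Fbn1 left out of it, Lox amounted to 8.50 ± 1.53% in KI and 11.7 ± 2.04% in WT ingWAT on HFD, with overlapping ranges. In BAT the ratio was 2.69 ± 0.577% in KI and 4.55 ± 0.891% in WT, where the highest KI value (3.43%) was under the lowest WT value (3.51%). How many of all genes had such ratios without overlap was not computed. On chow it was 5.06 ± 0.793% in KI and 4.77 ± 0.757% in WT. Dpt, itself called lower in each comparison, was part of that sum. Dpt averaged 371 ± 79.7 CPM in KI and 628 ± 174 in WT on HFD. On chow its means were 523 ± 145 and 1275 ± 416 CPM, and in BAT 49.0 ± 15.7 and 124 ± 42.1 CPM. These ratios, and those to the same sum below, therefore depend in part on Dpt. The part of stromal cell number in the Lox differences was not tested, and in whole tissue fewer cells of a type and less RNA per cell cannot be told apart.

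Loxl1, which is needed for elastic fibres, was among the 3 paralogues with no call in any genotype comparison. Its mean was 68.5 ± 14.7 in KI and 77.7 CPM in WT on HFD (WT range 52.7 to 106), 59.9 ± 14.3 and 79.0 ± 12.5 on chow, and 51.9 ± 25.2 and 38.0 ± 15.8 in BAT. The groups overlapped in each case, and the log2 fold changes were -0.18 (adjusted p = 0.462), -0.41 (0.12) and 0.42 (0.477). Loxl2, an enzyme that acts on basement membrane collagen, was the least abundant, from 9.34 to 23.8 CPM in ingWAT and from 0.642 to 6.02 CPM in BAT, where a library held 4 to 43 counts. Its log2 fold changes were -0.14, -0.35 and -0.71 on HFD, on chow and in BAT (adjusted p = 0.501, 0.238 and 0.267). Loxl3 was the steadiest, with group means between 35.0 and 42.7 CPM over both tissues and diets. Its 95% intervals were narrow, -0.21 to 0.19 on HFD, -0.05 to 0.31 on chow and -0.27 to 0.16 in BAT. Loxl3 shares 535 exon bases with Htra2, a gene on the opposite strand at 55.1 to 116 CPM, and since the strand setting of the counting is not given, reads from those bases cannot be assigned to either.

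Per kilobase of gene length, the lysyl oxidase family as a whole, counted with Loxl4, summed to 77.7 CPM per kilobase in WT and 54.4 in KI ingWAT on HFD. Lox made up 56.1 ± 6.12% of that sum in WT and 42.8 ± 5.29% in KI, and Loxl1 30.2 ± 5.50% and 37.9 ± 5.21%. In BAT the sums were 27.8 and 28.5 CPM per kilobase. There Loxl1 and Loxl3 led, at 40.2 ± 8.37% and 34.6 ± 6.15% in WT, and Lox made up 22.3 ± 3.79% in WT and 11.5 ± 3.70% in KI. Loxl4 stayed under 2% of the family in every mouse.

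**Figure D3:**
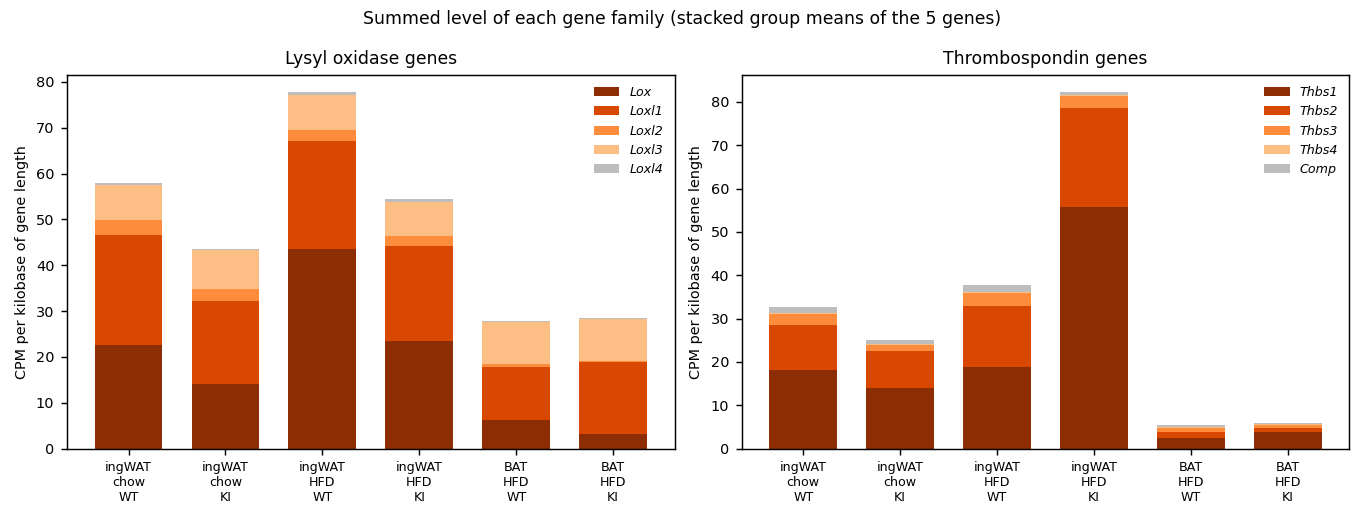
Summed level of the 5 lysyl oxidase genes (left) and the 5 thrombospondin genes (right) in each group, as stacked group means in CPM per kilobase of gene length. Lox is the largest part of the family in ingWAT on HFD (56.1% in WT) and a small one in KI BAT (11.5%), and the thrombospondin sum in KI ingWAT on HFD (82.2) is carried by Thbs1.

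Thbs1 and Thbs2 encode trimeric thrombospondins, which bind the receptors CD36 and CD47 and restrain the growth of blood vessels. Thbs1 can also release TGF beta from its latent complex. Thbs1 lies on chromosome 2 (118111876-118127133, plus strand, 22 merged exons in GENCODE vM21, GRCm38). In ingWAT on HFD it ran from 56.0 through a median of 92.6 to 243 CPM in WT and from 175 through 306 to 639 CPM in KI. The groups overlapped, but 5 of 8 KI mice exceeded every WT mouse. The mean was 339 ± 153 CPM in KI and 114 ± 58.8 in WT, 2.97-fold higher (log2 fold change 1.58, SE 0.317, adjusted p = 0.00213, exact permutation p = 6.22e-04). The call held without any single mouse (1.39 to 1.83), but not in 5 KI and 6 WT mice, without those rich in muscle or lymphocyte genes (1.47, adjusted p = 0.0348).

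The spread of Thbs1 between mice of a group was among the widest of the 10 genes. On chow its KI libraries ran from 9.64 to 193 CPM and the WT libraries from 30.6 to 191 CPM. No genotype difference could be resolved there (log2 fold change -0.40, 95% interval -1.57 to 0.77, adjusted p = 0.727), and the sign turned (0.56) without the 5 chow mice rich in muscle or lymphocyte genes. In BAT it ran from 8.99 to 20.3 CPM in WT and from 14.0 to 30.7 CPM in KI (log2 fold change 0.66, SE 0.203, adjusted p = 0.0588, exact permutation p = 0.0216). Of the 6 KI BAT libraries 5 were above the WT range, and the adjusted p ranged from 0.0164 to 0.125 when a single mouse was left out. An antisense neighbour, Gm29233, shares 208 exon bases with Thbs1 and was listed at a median of 29.3 CPM in KI and 9.60 in WT ingWAT on HFD. It was looked up because of this overlap, and reads from the shared bases cannot be assigned to a strand.

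Thbs2 lies on chromosome 17 (14665500-14694235, minus strand, 21 merged exons). On HFD it ran in ingWAT from 67.3 through 102 to 128 CPM in WT and from 118 through 163 to 198 CPM in KI. All but 1 of the 8 KI mice (7 of 8) exceeded every WT mouse. The means were 161 ± 23.4 and 99.3 ± 21.2 CPM, a log2 fold change of 0.70 (SE 0.125, adjusted p = 5.38e-04, exact permutation p = 4.66e-04). It was called without any single mouse (0.63 to 0.76) and without the muscle-rich or lymphocyte-rich mice (0.64, adjusted p = 0.00645), but not in 1 fit of all 6 groups (0.69, adjusted p = 0.0307). On chow the mean was 60.6 ± 19.4 in KI and 72.4 ± 31.2 CPM in WT (adjusted p = 0.598), with overlapping ranges.

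In BAT, Thbs2 was near the low end of what these libraries could measure, with 20 to 130 counts in each. It ran from 4.89 to 20.2 CPM in WT and from 2.91 to 9.65 CPM in KI, and 3 of 6 KI libraries lay below the WT range. The log2 fold change of -0.87 (SE 0.344) was not called (adjusted p = 0.135, exact permutation p = 0.0758).

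Against the same fibroblast marker sum, Thbs1 amounted to 25.6 ± 9.96% in KI and 6.54 ± 3.56% in WT ingWAT on HFD, and Thbs2 to 12.4 ± 2.19% and 5.52 ± 1.03%. The Thbs2 ratios did not overlap, with a lowest KI value of 8.74% and a highest WT value of 6.95%. The share of all genes whose ratios to this sum did not overlap was not computed. Mean ratios were also higher in KI for every gene of the 10 without a call, among them Loxl3 (2.72 ± 0.599% in KI and 2.04 ± 0.623% in WT). Only those of Lox and Tnc were lower. The sum itself had a lower median in KI, with ranges that overlapped and single markers of either sign. Its part in these ratios and in the Thbs1 and Thbs2 differences was not tested.

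The thrombospondin family, counted with Thbs3, Thbs4 and Comp, summed to 82.2 CPM per kilobase in KI and 37.7 in WT ingWAT on HFD. Thbs1 made up 65.6 ± 9.08% of it in KI and 47.8 ± 8.84% in WT. Comp, cartilage oligomeric matrix protein, was lower in KI ingWAT on HFD and fell from 5.15 ± 1.81 CPM in WT to 1.82 ± 0.610 in KI (log2 fold change -1.49, adjusted p = 1.72e-04). Thbs3 was called lower in KI mice on chow, at 6.61 ± 1.43 and 12.4 ± 2.62 CPM (-0.92, adjusted p = 0.00466). In BAT the family sum was 5.41 in WT and 6.00 CPM per kilobase in KI.

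Tnc encodes tenascin C, a large glycoprotein of healing and inflamed matrix, on chromosome 4 (63959785-64047015, minus strand, 27 merged exons). On HFD its ingWAT level ran from 49.9 through 69.1 to 85.3 CPM in WT and from 33.6 through 45.7 to 55.9 CPM in KI. Of the 8 KI mice 5 were below every WT mouse. The KI difference was -0.56 (SE 0.117, adjusted p = 0.00189, exact permutation p = 9.32e-04), and it was called without any single mouse (-0.62 to -0.51). It was not called without the muscle-rich and lymphocyte-rich mice (-0.49, adjusted p = 0.0249) or in 1 fit of all 6 groups (-0.57, adjusted p = 0.0292). Relative to the fibroblast marker sum it amounted to 3.52 ± 0.515% in KI and 3.94 ± 1.30% in WT.

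In BAT the Tnc values ran the other way, from 8.67 through 16.3 to 21.2 CPM in WT and from 15.6 through 20.7 to 34.4 CPM in KI, without a call (log2 fold change 0.44, adjusted p = 0.203, exact permutation p = 0.0671). On chow the means were 25.8 ± 10.9 in KI and 28.4 ± 7.32 CPM in WT, with ranges that overlapped throughout (adjusted p = 0.785).

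Thbs2 and Tnc were the only genes of the 10 whose genotype effect differed between the depots (2 called, where 2.82% of 17214 genes were, 1.24% with a lower and 1.58% with a higher effect in BAT), and in opposite directions. The Thbs2 effect in BAT minus that in ingWAT on HFD was -1.54 (SE 0.340, 95% interval -2.20 to -0.87, adjusted p = 0.00527). The Tnc effect difference was 1.04 (SE 0.236, 0.58 to 1.51, adjusted p = 0.0057). Leaving out a single mouse kept Thbs2 called in 23 of 28 fits and Tnc in 26 of 28. The Thbs2 call was lost without BAT WT mouse 4 or 6 or BAT KI mouse 3, 5 or 6 (adjusted p 0.0103 to 0.0129). The Tnc call was lost without BAT WT mouse 4 or BAT KI mouse 3 (0.012 and 0.0147). Neither was called in 1 fit of all 6 groups (adjusted p = 0.012 for Thbs2 and 0.0211 for Tnc). Thbs2 was also not called without a filter on low counts (0.0131), nor Tnc without the muscle-rich and lymphocyte-rich mice (0.0456). Each genotype effect in these differences was taken within a table. The other 8 genes gave no call, among them Sparc at 0.56 (adjusted p = 0.0766) and Thbs1 at -0.88 (0.222).

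The promoters of this pair are shown because theirs were the KI effects that differed between ingWAT and BAT by the test above. The sequences are RefSeq's GRCm38.p6 windows of 250 bases ending at the base before the listed transcript start, 5′ to 3′ on the gene's strand. For Thbs2 this is chr17:14694263-14694512 (minus strand) and for Tnc chr4:64047016-64047265 (minus strand, the outermost of 2 listed starts). Both windows lie upstream of the exons that GENCODE annotates. Capitals mark every match, on either strand, to 6 motifs: the AP-1 site TGANTCA, the SMAD-binding element CAGAC, the TEAD element CATTCC, the C/EBP-ATF response element TGATGNAA, the GC box GGGCGG and the TATA box TATAAA.
Thbs2: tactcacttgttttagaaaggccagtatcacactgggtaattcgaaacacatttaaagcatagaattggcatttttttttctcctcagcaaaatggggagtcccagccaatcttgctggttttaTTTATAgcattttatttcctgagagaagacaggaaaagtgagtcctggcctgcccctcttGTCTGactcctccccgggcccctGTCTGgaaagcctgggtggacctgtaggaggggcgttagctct
Tnc: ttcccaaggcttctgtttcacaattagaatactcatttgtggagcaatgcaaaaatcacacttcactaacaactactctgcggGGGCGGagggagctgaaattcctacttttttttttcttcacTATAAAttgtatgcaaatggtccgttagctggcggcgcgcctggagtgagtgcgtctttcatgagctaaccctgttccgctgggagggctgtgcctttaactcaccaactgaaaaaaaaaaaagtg

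The Thbs2 window (46.8% GC) held the SMAD-binding letters at 66 to 62 and at 43 to 39 bases before the start, both on the opposite strand, letters found in 42.2% of 32851 such windows over all genes. The printed Tnc window (44.8% GC) held a GC box at 167 to 162 bases before the start (32.7% of windows) and no SMAD-binding letters. The window of the second listed Tnc start, not printed, held them at 70 to 66 bases before that start, on the opposite strand. TATA letters, present in 12.4% of windows, stood at 126 to 121 bases before the start in both, on the opposite strand in Thbs2. Neither printed window held the AP-1 (6.75%), TEAD (12.6%) or C/EBP-ATF (3.45%) letters. A match of letters is not a site of binding.

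Postn encodes periostin, a collagen-binding protein of fibroblasts, and its largest genotype contrast was on chow. There it ran from 101 through a median of 127 to 153 CPM in WT and from 121 through 213 to 296 CPM in KI, and 5 of 6 KI mice exceeded every WT mouse. Its log2 fold change of 0.75 (SE 0.161) fell just outside the threshold (adjusted p = 0.0102, exact permutation p = 0.00583). In all, 5 alternatives put it inside, among them DESeq2 (adjusted p = 2.87e-04). So did leaving out chow KI mouse 4 (0.87, adjusted p = 7.60e-04). That mouse was the muscle-rich library and also had the lowest Postn value of the KI group (121 CPM). Postn stayed outside without the muscle-rich and lymphocyte-rich mice (0.82, adjusted p = 0.0116), and leaving out a single mouse gave up to 0.0244. On HFD and in BAT the log2 fold changes were -0.12 (95% interval -0.49 to 0.24, adjusted p = 0.702) and -0.20 (-0.60 to 0.20, adjusted p = 0.577).

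Sparc, which encodes a collagen chaperone of the matrix, was by far the most abundant, at 3762 to 6895 CPM on average in the ingWAT groups and above 99% of all genes per kilobase in each group. On HFD it ran from 5468 through 6863 to 8512 CPM in WT and from 3858 through 5211 to 6430 CPM in KI, with 4 of 8 KI mice below the WT range. The log2 fold change of -0.42 (SE 0.124) was not called by edgeR (adjusted p = 0.0217, exact permutation p = 0.00497) but was by DESeq2 (adjusted p = 0.0043). On chow it was -0.56 (SE 0.202, adjusted p = 0.1, exact permutation p = 0.0268), and in BAT 0.11 (SE 0.147, adjusted p = 0.681).

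Fn1, fibronectin, the scaffold on which collagen fibrils are first assembled, separated the genotypes completely in BAT. It ran from 27.1 through 37.2 to 48.0 CPM in the 6 WT libraries and from 17.5 through 22.0 to 26.3 CPM in the 6 KI libraries, so that the ranges did not touch, as for 3.69% of all genes. The exact permutation p of 0.00216 is the smallest that 6 against 6 allows, yet edgeR's adjusted p of 0.0101 (log2 fold change -0.79, SE 0.165) was just outside the threshold. Over the alternatives the adjusted p ran from 8.86e-04 to 0.168. It was inside with DESeq2 (8.86e-04), without a filter on low counts (0.00206), and without BAT WT mouse 2 or 3 (0.00831 and 0.00868). In ingWAT, Fn1 varied too widely to resolve a difference. It was -0.40 (95% interval -0.99 to 0.19, adjusted p = 0.385) on HFD, where WT mouse 7 alone reached 310 CPM, and -0.08 without that mouse. On chow it was -1.14 (-1.89 to -0.39, adjusted p = 0.084, exact permutation p = 0.0175), with 5 of 6 KI mice below the WT range. Chow WT mouse 4, highest in macrophage, epithelial and mesothelial genes, reached 217 CPM, where the WT median was 74.0. Leaving out a single mouse on chow gave -1.36 to -0.81.

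The genotype effects on HFD and on chow were also compared directly. None of the 10 genes passed the test of that difference, in edgeR or in DESeq2, where 0.632% of 17400 genes did in edgeR (0.207% with a higher effect on HFD and 0.425% with a lower). Of the 10, 3 had an unadjusted p under 0.05, as had 16.8% of all genes. They were Thbs1 (1.99, 95% interval 0.68 to 3.30, adjusted p = 0.111), Thbs2 (0.98, 0.39 to 1.57, adjusted p = 0.0746) and Postn (-0.86, -1.38 to -0.35, adjusted p = 0.0681). A call of Thbs1 on HFD and none on chow is therefore not shown to be a difference between the diets.

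Diets and tissues were deposited in separate tables, so in the following contrasts diet or tissue cannot be told apart from anything else that differed between the tables. In WT ingWAT, 3 of the 10 genes were higher on HFD than on chow, where 28.2% of genes were called and 13.1% were called higher. They were Lox (log2 0.94, SE 0.160, adjusted p = 2.62e-05), Postn (0.99, SE 0.185, adjusted p = 9.05e-05) and Tnc (1.27, SE 0.193, adjusted p = 6.55e-06). In each of these, all 8 WT mice on HFD exceeded every WT mouse on chow, as for 12.2% of all genes in 1 direction or the other. In KI ingWAT, 4 were higher (30.6% called, 15.2% called higher): Lox (0.76, adjusted p = 5.32e-04), Thbs1 (2.04, 0.00205), Thbs2 (1.44, 9.35e-06) and Tnc (0.86, 0.00106). These contrasts share their mice with the genotype contrasts above. Thbs1 had a log2 difference of 0.05 between the diets in WT (95% interval -0.85 to 0.94) and Postn 0.12 in KI (-0.25 to 0.50). Without the muscle-rich and lymphocyte-rich mice, Thbs1 and Tnc were no longer called in KI (1.26, adjusted p = 0.099, and 0.61, adjusted p = 0.0545).

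BAT held less of nearly all these transcripts than ingWAT on HFD. In WT mice 9 of 10 were called lower, where 55.9% of genes were called and 29.0% were called lower. In KI mice 8 of 10 were called lower (59.1% called, 30.6% lower). The median log2 difference of the 10 was -1.88 in WT and -1.77 in KI, against -0.09 and -0.12 over all genes. Thbs2 had the widest gap in KI (-4.72, SE 0.274, 26.4-fold) and one of -3.18 in WT (9.04-fold), followed by Thbs1 (-3.88 and -2.99) and Lox (-2.93 and -2.81). Postn differed least among those called (-0.74 and -0.70). Its call was lost in WT without BAT WT mouse 3, 4 or 5 (adjusted p 0.0101 to 0.0123) and in KI without the muscle-rich and lymphocyte-rich mice (-0.62, adjusted p = 0.0179). The exception in both genotypes was Loxl3, at 0.25 and 0.26 (adjusted p = 0.0359 and 0.0314), and in KI also Loxl1 (-0.42, adjusted p = 0.15). Without the same mice Loxl1 was called lower in KI (-0.73, adjusted p = 0.00482) and Loxl3 higher in WT (0.39, adjusted p = 0.00934). The fibroblast markers moved with this contrast, with median sums of 663 CPM in BAT and 1960 CPM in ingWAT of WT mice on HFD, and their part in it was not tested.

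By level per kilobase in WT ingWAT on HFD, Sparc (1820 CPM per kilobase) was followed at a distance by Lox (43.5), Postn (28.9), Loxl1 (23.6), Thbs1 (18.8) and Thbs2 (14.2), and then by Fn1, Tnc (8.79), Loxl3 (7.70) and Loxl2 (2.33). In KI mice on the same diet Thbs1 (55.8) came directly after Sparc (1356), and Lox (23.4), Postn (26.3) and Thbs2 (22.9) stood close together. Across the 6 groups, the order of Lox was HFD WT, HFD KI, chow WT, chow KI, BAT WT and BAT KI. Of these neighbours, HFD KI and chow WT differed by 3.18 CPM, within the SD of 33.4. For Loxl1 and Loxl3 no neighbouring groups differed by more than the larger SD.

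Other genes of matrix assembly were described from lists chosen with earlier results of these data known. Over all lists and the 3 genotype comparisons, 14 calls were made, a pooled count with no share over all genes of its own. The counts by list below are to be read against the 11.5%, 3.23% and 1.83% of all genes called on HFD, on chow and in BAT. On HFD in ingWAT, collagen-modifying and cross-linking genes gave 2 higher and 2 lower among 18 tested, with a median log2 fold change of -0.10. Pcolce2 (-1.33, adjusted p = 2.57e-05), an enhancer of procollagen C-proteinase, fell from 60.6 ± 13.2 to 24.0 ± 6.52 CPM. Its relative Pcolce rose from 127 ± 24.8 to 210 ± 42.6 CPM (0.73, adjusted p = 5.25e-04). P4ha2, a collagen prolyl hydroxylase, was higher (0.68, adjusted p = 4.96e-04), and Plod2, the lysyl hydroxylase of collagen telopeptides, was lower (-0.43, adjusted p = 0.00342). DESeq2 called the same genes of this list and also Crtap, higher (0.28, adjusted p = 0.0126 in edgeR). Among the substrates of the oxidases, 1 of 7 fibrillar collagen and elastin genes was called, Col5a2, lower at 148 ± 25.7 against 246 ± 59.3 CPM (-0.73, adjusted p = 8.09e-04). All 7 had a negative log2 fold change (-0.73 to -0.07, median -0.34). Of the elastic fibre genes 0 of 12 were called by edgeR, 3 had an unadjusted p under 0.05 (32.9% of all genes), and DESeq2 called 1, Fbln5, higher.

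Of 18 matrix receptors, 3 were higher in KI ingWAT on HFD and none lower by edgeR or DESeq2 (6.21% and 5.24% of all genes): the collagen receptors Ddr1 (0.94, adjusted p = 3.71e-04) and Ddr2 (0.53, adjusted p = 8.94e-04) and the heparan sulphate proteoglycan Sdc4 (0.77, adjusted p = 0.0076). The list's median was -0.02. Among 6 TGF beta ligands and receptors, Tgfb3 was higher, at 33.6 ± 5.58 against 22.6 ± 5.67 CPM (0.57, adjusted p = 0.00863). Of the 15 other matricellular genes, 9 had counts, and 1 of them, Comp, was called by edgeR. DESeq2 called Comp and also Smoc1 lower (Smoc1 -0.43, adjusted p = 0.0213 in edgeR).

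On chow, Pcolce2 was lower again (9.28 ± 4.16 against 40.0 ± 18.9 CPM, -2.12, adjusted p = 0.00298), as was Col5a2 (-0.80, adjusted p = 0.00743). All 7 fibrillar collagen and elastin genes had negative log2 fold changes (-0.93 to -0.14, median -0.47), and DESeq2 called 3 lower (Col1a1, Col5a1 and Col5a2). Of 8 matricellular genes tested 2 were lower by edgeR, Thbs3 and the calcium-binding Smoc1 (-1.02, adjusted p = 0.00346). DESeq2 called 4 of them lower, with Smoc2 and Tgfbi, and 6 had an unadjusted p under 0.05 in edgeR. Among 17 receptors edgeR called 0 and DESeq2 called 1, Itga11, lower. All 12 elastic fibre genes had negative log2 fold changes (-1.74 to -0.18, median -0.67). EdgeR called 0 of them, 10 had an unadjusted p under 0.05 (24.3% of all genes), and DESeq2 called 4 lower (Efemp1, Fbln1, Fbln2 and Mfap5). In BAT edgeR called 0 genes of these lists, although 6 of the 7 fibrillar collagen and elastin genes had an unadjusted p under 0.05, as had 5 of 12 elastic fibre genes and 4 of 17 collagen-modifying genes, against 24.4% of all genes. DESeq2 called Pcolce2, Col1a1 and Efemp1 lower there. The median was -0.66 for fibrillar collagens and elastin and 0.06 for receptors, against -0.01 for all genes.

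**Figure D4:**
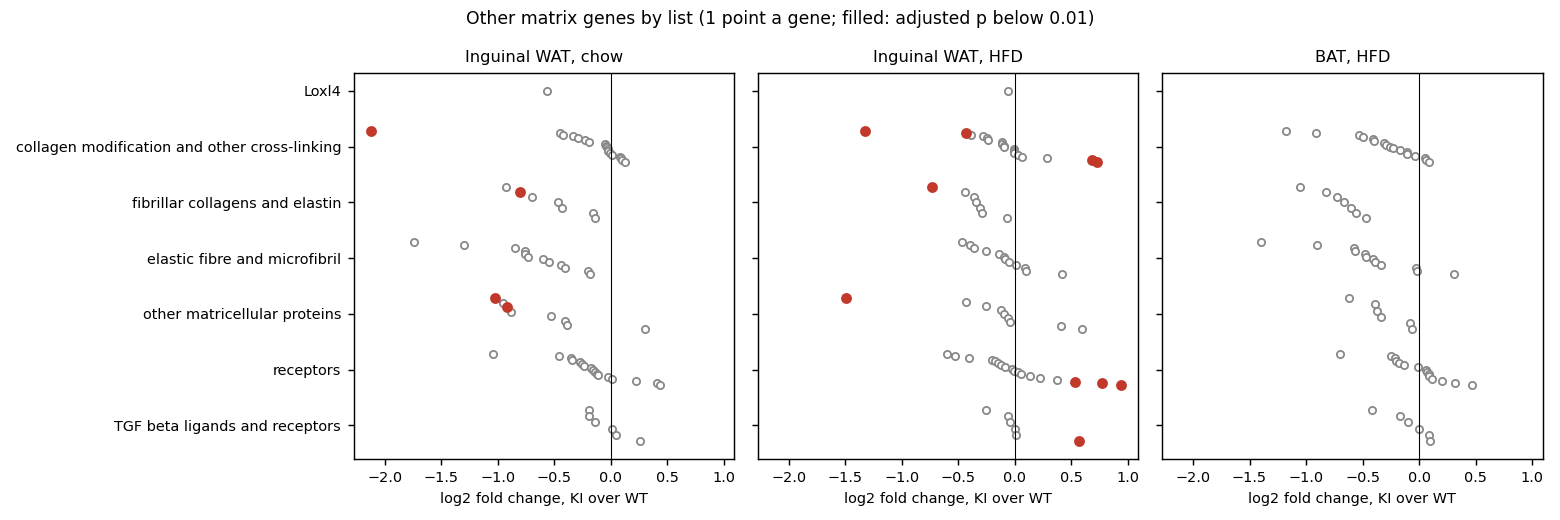
Log2 fold change of KI over WT for each tested gene of the matrix lists, 1 point a gene, in ingWAT on chow, ingWAT on HFD and BAT on HFD; filled red points were called. The calls in ingWAT on HFD fall on both sides of 0, from -1.49 (Comp) to 0.94 (Ddr1), those on chow all lie below 0, and BAT has none.

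For Lox, Tnc and Thbs1, the 2 genes with the most similar profile of group means were sought among genes with a mean of at least 1 CPM, by the root mean square (RMS) difference of centred log2 CPM over the 6 groups. Lox was followed by Plekhh2 (RMS 0.133) and Grap2 (0.136), and Tnc by Zfp469 (0.0999) and Cpt1a (0.121). For Thbs1 the nearest were farther off, Frmpd1 (0.272) and Susd4 (0.388). Within the 10 genes, the nearest to Thbs1 was Thbs2 at 0.678, and the nearest to Lox was Fn1 at 0.502. Each match rests on 6 group means, in which tissue and diet cannot be told apart from the table. Grap2, Zfp469, Frmpd1 and Susd4 were low in BAT, with a negative mean log2 CPM in both genotypes. Shared regulation was not tested.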

How the data were processed

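Polyadenylated RNA was sequenced in paired ends on a NovaSeq, and per the labels and methods the authors trimmed reads with cutadapt, aligned them with STAR to GRCm38 and counted them per gene with featureCounts. Tool versions, annotation release and strand setting are not given in the sources used here. The deposited values are raw counts in 3 tables (BAT, ingWAT on chow, ingWAT on HFD), with 41 columns of 1 mouse each. For ingWAT on HFD the labels list 2 technical libraries a mouse, and the single column of a mouse was used as 1 replicate. Of 54838 entries, 1884 lacked a length and a count and were not used, and 99 symbols listed more than once with identical counts were kept once. Because of the former, none of the 6 CCN genes could be described. The listed lengths of the 10 genes equal their merged exons in GENCODE vM21.

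edgeR 4.0.16 (R 4.3.3) was run per table with filterByExpr, TMM and robust quasi-likelihood fits, with Benjamini-Hochberg adjustment over all tested genes at 0.01. Joint fits of the 4 ingWAT and the 4 HFD groups gave the interactions and the diet and tissue contrasts. CPM used TMM over all 41 columns, and permutation tests used log2(CPM + 0.1). DESeq2 1.42.0 was an alternative. Intervals are 95% normal intervals of the edgeR log2 fold change. Scripts were tested on simulated counts. The 10 genes and all lists were chosen with earlier results of these data known. Named genes are the 10 genes, called list genes (all if 4 or fewer), the nearest 2 profiles of each called gene (those of Thbs2 are not reported here), Mfn2 and defining markers. DESeq2 calls and overlapping genes were named after their values were seen. No 2 columns of a group were alike within counting noise (chi-square per gene at least 7.18). The p-values of the genotype and diet contrasts measure the spread between mice. Contrasts that joined BAT and ingWAT took every library as a separate animal, which the sources used here do not settle.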

Additional observations from a re-analysis of the deposited data

Results flagged for a closer look

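The genotype effect of Thbs2 differed between tissues on HFD by -1.54 (log2, BAT minus ingWAT) and that of Tnc by 1.04, both by the interaction test given above. Thbs2 was higher in KI ingWAT and had a negative value in KI BAT, and Tnc the reverse, and neither BAT contrast was itself called.

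Single mice stood far from their group in 4 of 60 sets (10 genes in 6 groups), where chance alone flags about 1 in 20. Fn1 reached 310 CPM in HFD WT ingWAT mouse 7, with the next at 124 CPM. Postn reached 401 CPM in HFD KI ingWAT mouse 5, with the next at 238 CPM, and the summed macrophage markers of that mouse were the second highest of all libraries (1553 CPM). Loxl2 reached 15.2 CPM in HFD KI ingWAT mouse 1, with the next at 11.9 CPM. Sparc was lowest in BAT KI mouse 6, at 1495 CPM, with the next at 1991 CPM. The part of other tissue in these single values was not tested.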

How the results depend on the processing

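Of the log2 fold changes of the 10 genes, 73 to 90 per alternative (86 to 90 could be computed) kept direction and side of the threshold. Counts of genes called moved as follows. In ingWAT on HFD, 2 in place of 4 were called at an adjusted p below 0.001, in 1 fit of all 6 groups and without muscle-rich and lymphocyte-rich mice. On chow, 2 in place of 0 were called at 0.05, by DESeq2 and in 1 fit of all groups, and 1 with RLE size factors, with at least 10 counts in every mouse and without a filter. In BAT, 2 in place of 1 were called at 0.05, by DESeq2, without a filter and with a replicate block, and 0 at 0.001. The tissue interaction gave 0 in place of 2 at 0.001, in 1 fit of all groups and with a replicate block, and 1 without a filter or without the rich mice. For HFD against chow in KI, 2 in place of 4 were called at 0.001 and without the rich mice. Pathway calls were 14, 33 at 0.05 and 29 by DESeq2. When each mouse was left out, calls ranged from 0 to 1 on chow, 0 to 2 in BAT, 0 to 2 for the tissue interaction and 3 to 5 for HFD against chow in WT.

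Signs that turned were all of uncalled values. Without the rich mice these were Thbs1 (0.56), Thbs2 (0.10) and Tnc (0.31) on chow, Loxl1 in BAT (-0.04) and between diets in WT (0.06), Sparc in the diet interaction (-0.27), Postn in the tissue interaction (0.32) and between diets in KI (-0.04). Loxl3 turned to 0.00 in the tissue interaction with DESeq2, RLE and the fit of all groups, and to 0.02 and 0.01 between diets in WT with at least 10 counts and without a filter, as did Loxl1 (0.01) with at least 10 counts. Thbs1 between diets in WT was -0.25 with a replicate block. Leaving out single mice gave -0.08 to 0.03 for Loxl3 on HFD, -0.10 to 0.01 for Loxl3 in BAT and -0.35 to 0.01 for Tnc on chow. In the tissue interaction it gave -0.23 to 0.01 for Lox, -0.07 to 0.06 for Loxl3 and -0.13 to 0.12 for Postn. Between diets it gave -0.12 to 0.05 for Loxl1, -0.07 to 0.06 for Loxl3 and -0.24 to 0.23 for Thbs1 in WT, and -0.07 to 0.24 for Postn in KI. The cause of these changes was not tested.

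Mouse numbers recur in the groups. Correlations of same-numbered mice were over 0.1 in 2 of 8 pairs of KI and WT on HFD (-0.28 to 0.75), 1 of 6 on chow, 3 of 6 in BAT, in 4 of 6 pairs of BAT and ingWAT in WT and 0 of 6 in KI, and in 2 of 7 pairs of HFD and chow in WT and 1 of 6 in KI. No set had every pair over 0.1, so the numbers were not taken as pairs. Whether BAT and ingWAT libraries share animals is not given in the sources used here. With the replicate block, Thbs1 on HFD (1.62, adjusted p = 0.0145), Thbs2 (0.0205) and Tnc (0.0284) in the tissue interaction, Lox between diets in KI (0.0118) and Postn between tissues in WT (0.0281) were not called, while Fn1 was in BAT (0.00783) and between diets in KI (0.00984). On chow, Lox was at 0.157 and Postn at 0.0515. Over all genes the calls were 1886 on HFD (1242 in 1 fit of all groups), 472 on chow (1116 by DESeq2, 1088 in that fit, 134 without the rich mice, 127 with the replicate block), 243 in BAT (714 and 834), 110 for the diet interaction (408 by DESeq2, 168 with at least 10 counts, 11 and 7 for the last 2 settings), 485 for the tissue interaction (848, and 305 and 269) and 5332 for the diets in KI (2496 without the rich mice). BAT and chow libraries held fewer counts than those of ingWAT on HFD, which limits Loxl2 and Thbs2 in BAT most.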
